A study of Mus musculus with 6 samples.

Results

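The genes described here encode the non-collagen part of the extracellular matrix: 13 adhesive and matricellular glycoproteins, 8 proteoglycans, 10 elastic fibre and microfibril proteins, 3 lysyl oxidases that crosslink collagen and elastin, and 2 hyaluronan synthases. They were taken from a list of 41 genes by symbol, and 36 of them were measured by a feature of the array that carried that symbol alone, among 30142 genes compared in all. Ecm1 and Loxl2 shared their features with other genes and were not named, and Spp1, Fbn1 and Efemp2 were not analysed here. Cells had been sorted from skin squamous cell carcinomas of Sfrp1-/- mice (written Sfrp1_KO, 3 samples) and of wild-type mice (WT, 3 samples), and RNA of each sample was hybridised to 1 Affymetrix MTA 1.0 array. Mice of both genotypes had been given the mutagen DMBA at postnatal days 23, 25 and 27 and then the tumour promoter TPA 2 times a week for 30 to 40 weeks. The sort took cells without lineage markers that carried Epcam, α6 integrin and CD34, a combination used for skin cancer stem cells. The labels give no age at collection, do not say which part of Sfrp1 is deleted nor whether each sample stands for its own mouse, so p-values reflect variation among these 6 samples that may be partly technical.

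Fibronectin, tenascins, thrombospondins and related glycoproteins link cells to the matrix through integrins and other receptors, and several of them are made mainly during wound repair and in tumours. Proteoglycans carry glycosaminoglycan chains; the small leucine-rich ones, such as decorin and biglycan, bind collagen fibrils and growth factors, and versican binds hyaluronan. Fibrillins, fibulins and microfibril-associated proteins build elastic fibres, and lysyl oxidases crosslink collagen and elastin covalently. In skin most of these proteins come from dermal fibroblasts, while keratinocytes make some of them, tenascin C and thrombospondin 1 among them, when they are injured or transformed.

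Values are the deposited log2 signals, and a difference is Sfrp1_KO minus WT. The largest signal in the table was 19.93, above the 16 log2 units of a scanner of 16 bits, so an unknown step changed the scale, and a difference of 1 need not be a doubling of RNA. The background level of an array was its highest signal among 23 background probe sets and lay between 4.82 and 5.10, with array medians of 4.32 to 4.46. Between 33.2% and 42.5% of genes stood above it. Sfrp1 itself stood at 5.09, 5.11 and 5.15 in Sfrp1_KO and at 5.71, 5.48 and 6.07 in WT (difference -0.64, SE 0.15, limma adjusted p = 0.0969). Of the sort markers, Epcam was near background in Sfrp1_KO (5.03 ± 0.17, against 7.59 ± 1.03 in WT; SD, n = 3) and Itga6 was at 7.62 ± 0.18 in Sfrp1_KO and 9.51 ± 0.64 in WT, both with limma adjusted p under 0.05 (0.0455 and 0.0292). Cd34 was at 10.99 ± 0.71 in Sfrp1_KO and 9.42 ± 0.15 in WT (limma adjusted p = 0.0714). Epcam exceeded the background level on 1 Sfrp1_KO array and on all 3 WT arrays.

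Matrix genes went in both directions. Mgp, Fn1, Sparcl1, Thbs2, Vcan, Loxl1, Loxl3 and Matn2 rose in Sfrp1_KO and Tnc and Fbln1 fell, with adjusted p under 0.05 by limma over all genes. These were 8 higher and 2 lower of 36 measured, where 1.83% of all genes tested were called higher and 1.45% lower, or 3.28% in either direction. The other 26 did not pass. These shares include dim genes. When genes above background on fewer than 3 arrays were left out, 25 of the 36 remained, 8 called higher and 2 lower. A gene could pass this filter on the arrays of a single genotype, as Tnc and Fbln1 did in WT. Keeping such a call is therefore no further evidence for it. Of all 11010 genes then kept, 610 were called higher and 479 lower. The median difference of the 36 genes was 0.05, beside -0.01 over all genes tested. For the 25 kept by the filter it was 0.36, with no median of all kept genes to set beside it. In 19 of the 36 no array of one genotype overlapped those of the other, where 19.9% of all genes showed this, and each of these 19 had the smallest two-sided exact permutation p that 3 arrays against 3 allow, 0.1. In such bulk samples fewer cells of a type and less RNA per cell cannot be told apart. Without Sfrp1_KO replicate 2 the counts were 5 higher and 1 lower, without WT replicate 1 they were 5 and 3, and without Sfrp1_KO replicate 1 they were 6 and 1. Calls over all genes changed too, from 552 higher and 437 lower with all arrays. In the same order of arrays left out they were 191 and 100, 346 and 407, and 223 and 125.

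**Figure D1:**
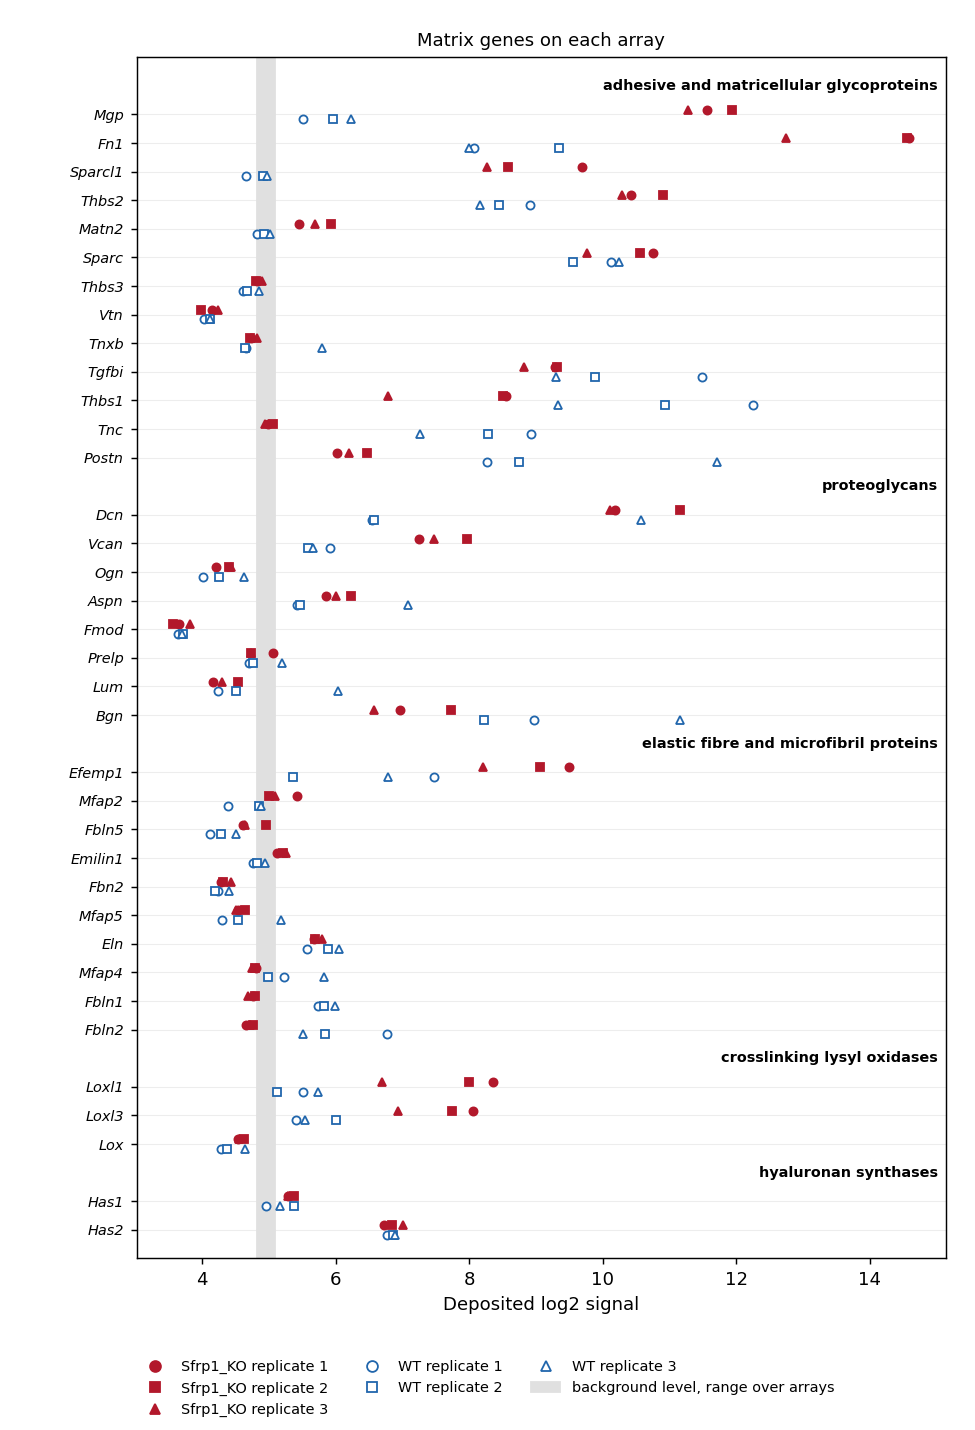
Deposited log2 signal (x axis) of the 36 measured matrix genes, with filled red symbols for the 3 Sfrp1_KO arrays, open blue symbols for the 3 WT arrays and 1 symbol shape per replicate number; the grey band is the range of the background level over arrays, 4.82 to 5.10. Mgp, Fn1 and Sparcl1 show the widest gaps with Sfrp1_KO to the right, Tnc and Postn lie to the right in WT, and the open triangles of WT replicate 3 stand apart for Dcn, Postn, Bgn, Lum, Aspn and Tnxb.

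Among the glycoproteins, Mgp, which encodes matrix Gla protein, an inhibitor of calcification, stood at 11.55, 11.93 and 11.27 in Sfrp1_KO and at 5.51, 5.96 and 6.23 in WT. The WT arrays were a little above background, and the groups were far apart. The difference was 5.69 (SE 0.23, 95% CI 5.12 to 6.25, limma adjusted p = 0.00039). Fn1, the gene of fibronectin, a ligand of α5β1 integrin around which other matrix proteins assemble, stood at 14.58, 14.56 and 12.75 in Sfrp1_KO, against 8.08, 9.35 and 8.0 in WT. Sfrp1_KO replicate 3 was well below the other Sfrp1_KO arrays and still far above the highest WT array. The difference was 5.49 (SE 0.59, limma adjusted p = 0.00841). Sparcl1, a matricellular relative of SPARC, stood at 9.69, 8.58 and 8.26 in Sfrp1_KO and at 4.66, 4.91 and 4.97 in WT, where only replicate 3 exceeded its array's background level. It rose by 4.0 (SE 0.36, limma adjusted p = 0.00478). Sparc itself did not pass: it was bright in both genotypes, at 10.75, 10.56 and 9.77 in Sfrp1_KO and 10.12, 9.55 and 10.24 in WT, and its 95% interval ran from -0.33 to 1.11.

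Thrombospondins 1 and 2, inhibitors of angiogenesis that share receptors, had differences of opposite sign. Thbs2 stood at 10.42, 10.91 and 10.28 in Sfrp1_KO, against 8.91, 8.45 and 8.15 in WT. It rose by 2.04 (SE 0.24, limma adjusted p = 0.0104), and its groups were apart by more than the spread within either. Thbs1, which also activates latent TGF-β, stood at 8.56, 8.50 and 6.78 in Sfrp1_KO and at 12.26, 10.93 and 9.33 in WT. Each WT array lay above each Sfrp1_KO array, but both groups were spread widely, and the difference of -2.89 (SE 0.81) did not pass (limma adjusted p = 0.149). Thbs3 was at 4.84 ± 0.05 in Sfrp1_KO and 4.71 ± 0.12 in WT (SD, n = 3), around background. Whether Thbs1 and Thbs2 differ from each other in their change was not tested.

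Tnc, the gene of tenascin C, a glycoprotein that weakens adhesion to fibronectin, stood at 4.99, 5.07 and 4.94 in Sfrp1_KO, all under the background level, and at 8.93, 8.29 and 7.26 in WT. It fell by at least 3.09 (mean of WT minus the background level of the Sfrp1_KO arrays), with a limma adjusted p of 0.0124 for the unbounded difference. The call was lost without Sfrp1_KO replicate 1 (adjusted p = 0.0565) or Sfrp1_KO replicate 2 (0.0684). Postn, the gene of periostin, which binds tenascin C and collagen, stood at 6.02, 6.46 and 6.20 in Sfrp1_KO and at 8.27, 8.74 and 11.71 in WT. All WT arrays were higher, replicate 3 by far the most, and the difference of -3.35 (SE 0.86) did not pass (limma adjusted p = 0.117). Without WT replicate 3 it was -2.28 and passed (adjusted p = 0.0107). Tgfbi, an integrin ligand induced by TGF-β, had overlapping groups, with 9.28, 9.31 and 8.82 in Sfrp1_KO and 11.48, 9.88 and 9.30 in WT (-1.08, SE 0.53, limma adjusted p = 0.449). Without WT replicate 1 the difference was -0.45.

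Matn2, which encodes matrilin 2, a linker of matrix filaments, stood at 5.45, 5.92 and 5.70 in Sfrp1_KO, against 4.82, 4.93 and 5.02 in WT, where replicate 3 alone exceeded background. The rise was small, 0.77 (SE 0.14, limma adjusted p = 0.0388). It was not called without Sfrp1_KO replicate 2 (adjusted p = 0.110) or 3 (0.109), nor without WT replicate 1 (0.10), 2 (0.101) or 3 (0.0888). Tnxb was under background on all arrays but WT replicate 3, at 5.79, and the gene of vitronectin, Vtn, was under background on all 6 arrays. The glycoprotein group as a whole held 5 genes that rose, 1 that fell and 7 that did not pass.

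Of the proteoglycans 1 of 8 was called. Vcan, the gene of versican, a large chondroitin sulfate proteoglycan that binds hyaluronan, stood at 7.25, 7.97 and 7.47 in Sfrp1_KO and at 5.91, 5.58 and 5.67 in WT. The groups were apart by more than the spread within either, and the gene rose by 1.84 (SE 0.20, limma adjusted p = 0.00825). Bgn, the gene of biglycan, stood at 6.97, 7.73 and 6.58 in Sfrp1_KO, against 8.97, 8.22 and 11.15 in WT. WT was higher on each array, with replicate 3 the highest, and the difference of -2.36 (SE 0.75) did not pass (limma adjusted p = 0.201). Without WT replicate 3 it was -1.50 (adjusted p = 0.174). Dcn, the gene of decorin, stood at 10.18, 11.16 and 10.11 in Sfrp1_KO and at 6.54, 6.58 and 10.56 in WT. Here WT replicate 3 lay among the Sfrp1_KO arrays and the 2 other WT arrays far below them. The difference was 2.58 (SE 1.09, limma adjusted p = 0.356), and without WT replicate 3 it was 3.92 and passed (adjusted p = 0.0105).

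Fmod and Ogn, genes of fibromodulin and osteoglycin, were under background on all 6 arrays, and Prelp exceeded it only on WT replicate 3, at 5.20. Lum, the gene of lumican, which organises collagen fibrils, was at 4.16, 4.53 and 4.30 in Sfrp1_KO and 4.24, 4.51 and 6.03 in WT. It was under background everywhere but on WT replicate 3. Dcn and Lum are neighbours on chromosome 10 with no other coding gene between them in the RefSeq table, and both were high on WT replicate 3, while Dcn alone was high in Sfrp1_KO. Aspn, the gene of asporin, showed the same array apart, with 5.85, 6.24 and 6.01 in Sfrp1_KO and 5.42, 5.46 and 7.08 in WT (difference 0.05, SE 0.44). That sign turned with array weights and without Sfrp1_KO replicate 2, WT replicate 1 or WT replicate 2.

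WT replicate 3 stood at least 1 log2 unit above both other WT arrays for 6 of the 36 matrix genes (16.7%), Dcn, Postn, Bgn, Lum, Aspn and Tnxb, and for 0.315% of all genes. It was the highest WT array for 25 of the 36 (69.4%) and for 36.6% of all genes. It was at least 1 unit below both others for Tnc and Thbs1. Of the 10 fibroblast markers measured, dermatopontin (Dpt) was at 6.08, 6.46 and 5.72 in Sfrp1_KO and 5.41, 5.59 and 7.59 in WT, and Col1a1 at 6.05, 6.81 and 6.10 in Sfrp1_KO and 6.72, 6.04 and 7.54 in WT, both highest on WT replicate 3. The mean of the 10 markers was 5.66 to 6.21 on the Sfrp1_KO arrays and, in WT, 5.07 for replicate 1, 5.02 for replicate 2 and 5.67 for replicate 3. Their part in the values of these matrix genes was not tested. Keratinocyte markers went both ways on that array. Epcam (7.43, 8.69 and 6.65 on WT replicates 1, 2 and 3) and Itga6 (10.22, 9.30 and 9.0) were lowest on WT replicate 3. Dsg3 (11.11, 10.83 and 12.93), Krt15 (5.80, 5.99 and 7.47) and Cdh1 (9.30, 9.42 and 9.69) were highest there. Trp63 (7.29, 7.22 and 7.17) was nearly level. Krt5 and Krt14 were close to their values on WT replicate 1, and Krt1 and Krt10 lay between the other WT arrays. The mean of the 10 was 9.85, 9.23 and 9.93 on WT replicates 1, 2 and 3.

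**Figure D2:**
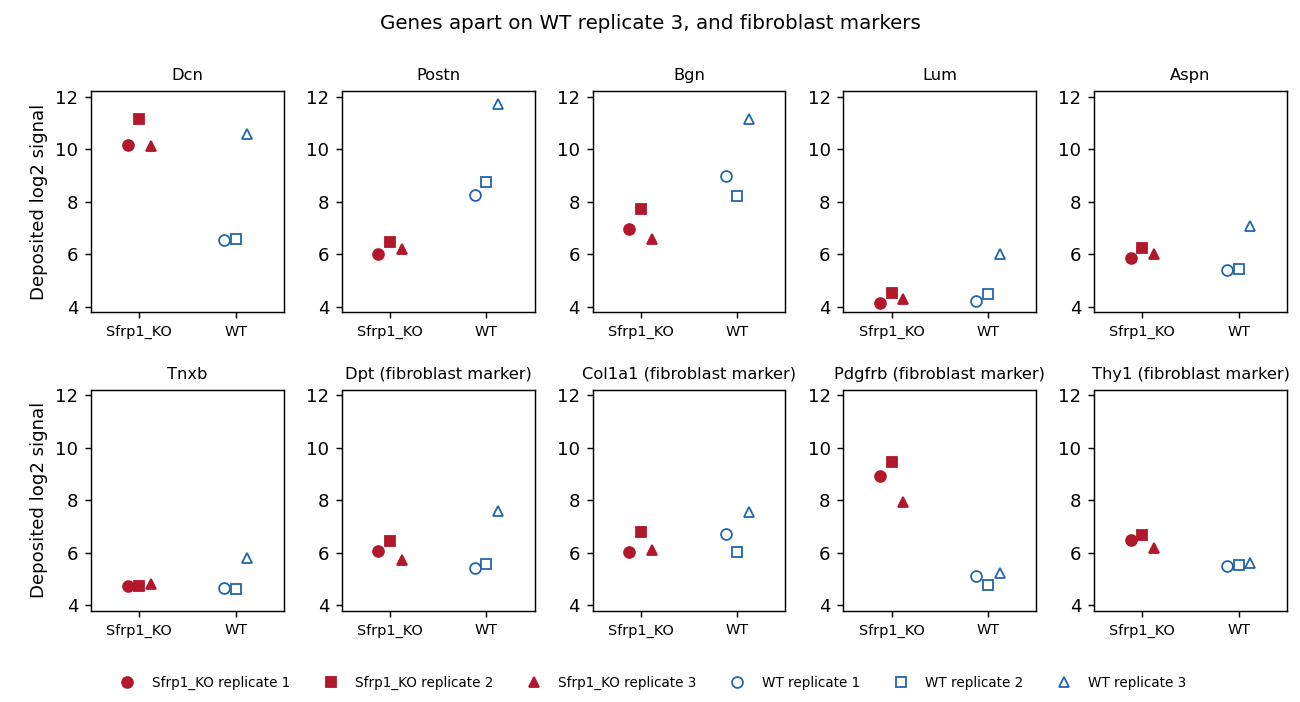
Deposited log2 signal (y axis) on each array for 6 matrix genes and 4 fibroblast markers, with Sfrp1_KO left and WT right in each panel and 1 symbol shape per replicate number. WT replicate 3 (open triangles) lies apart from the other WT arrays for the 6 matrix genes and for Dpt and Col1a1, and close to them for Pdgfrb and Thy1.

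Most elastic fibre genes were dim or did not pass. Fbln1, the gene of fibulin 1, which binds fibronectin and elastic fibres, stood at 4.77, 4.80 and 4.69 in Sfrp1_KO, all under background, and at 5.74, 5.82 and 5.98 in WT. It fell by at least 0.78 (limma adjusted p = 0.00394 for the unbounded difference) and was called with any 1 array left out. Fbln2 stood at 4.66, 4.76 and 4.72 in Sfrp1_KO, under background too, and at 6.77, 5.84 and 5.51 in WT. WT was higher on each array by at least 0.97 on average, without passing (limma adjusted p = 0.0864), and it passed without WT replicate 1 (adjusted p = 0.0268). Efemp1, the gene of fibulin 3, went the other way without passing, with 9.50, 9.06 and 8.21 in Sfrp1_KO and 7.47, 5.36 and 6.78 in WT (2.38, SE 0.58, limma adjusted p = 0.101).

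Emilin1, an elastin-associated glycoprotein gene, was at 5.13, 5.21 and 5.26 in Sfrp1_KO and at 4.76, 4.82 and 4.95 in WT, a narrow difference of 0.36 (SE 0.09, limma adjusted p = 0.0996) close to background. Mfap2, the gene of a microfibril glycoprotein, was at 5.42, 4.99 and 5.09 in Sfrp1_KO and 4.38, 4.85 and 4.87 in WT (limma adjusted p = 0.297). Mfap4 was at 4.81, 4.80 and 4.75 in Sfrp1_KO, under background, and at 5.23, 4.98 and 5.82 in WT (limma adjusted p = 0.284). None of these 3 overlapped between genotypes, and none passed. Elastin itself (Eln) was at 5.72 ± 0.07 in Sfrp1_KO and 5.83 ± 0.24 in WT (SD, n = 3), with a 95% interval of the difference from -0.44 to 0.21. Fbn2 and Fbln5 were under background on all 6 arrays, and Mfap5 on all but WT replicate 3.

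Of the 3 lysyl oxidases measured, 2 rose. Loxl1, which crosslinks elastin, stood at 8.35, 8.0 and 6.69 in Sfrp1_KO and at 5.51, 5.11 and 5.73 in WT, with Sfrp1_KO replicate 3 nearest to WT. It rose by 2.23 (SE 0.43) with a limma adjusted p of 0.0497. It was called only as long as all arrays or all but Sfrp1_KO replicate 3 were used: adjusted p was 0.136 and 0.201 without Sfrp1_KO replicates 1 and 2, and 0.115, 0.131 and 0.110 without WT replicates 1, 2 and 3. Loxl3 stood at 8.05, 7.74 and 6.93 in Sfrp1_KO, against 5.41, 6.0 and 5.54 in WT, the same order of the Sfrp1_KO arrays. It rose by 1.92 (SE 0.31, limma adjusted p = 0.0275), and was not called without Sfrp1_KO replicates 1 (0.0829) or 2 (0.127) or WT replicates 1 (0.0776) or 3 (0.0922). Lox, the founding member of the family, was under background on all 6 arrays.

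Neither hyaluronan synthase passed. Has2, which makes long hyaluronan chains, was at 6.86 ± 0.15 in Sfrp1_KO and 6.84 ± 0.06 in WT (SD, n = 3), with a 95% interval of the difference from -0.22 to 0.26. Has1 was at 5.32 ± 0.05 in Sfrp1_KO and 5.17 ± 0.21 in WT, slightly above background (95% interval -0.14 to 0.44).

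**Figure D3:**
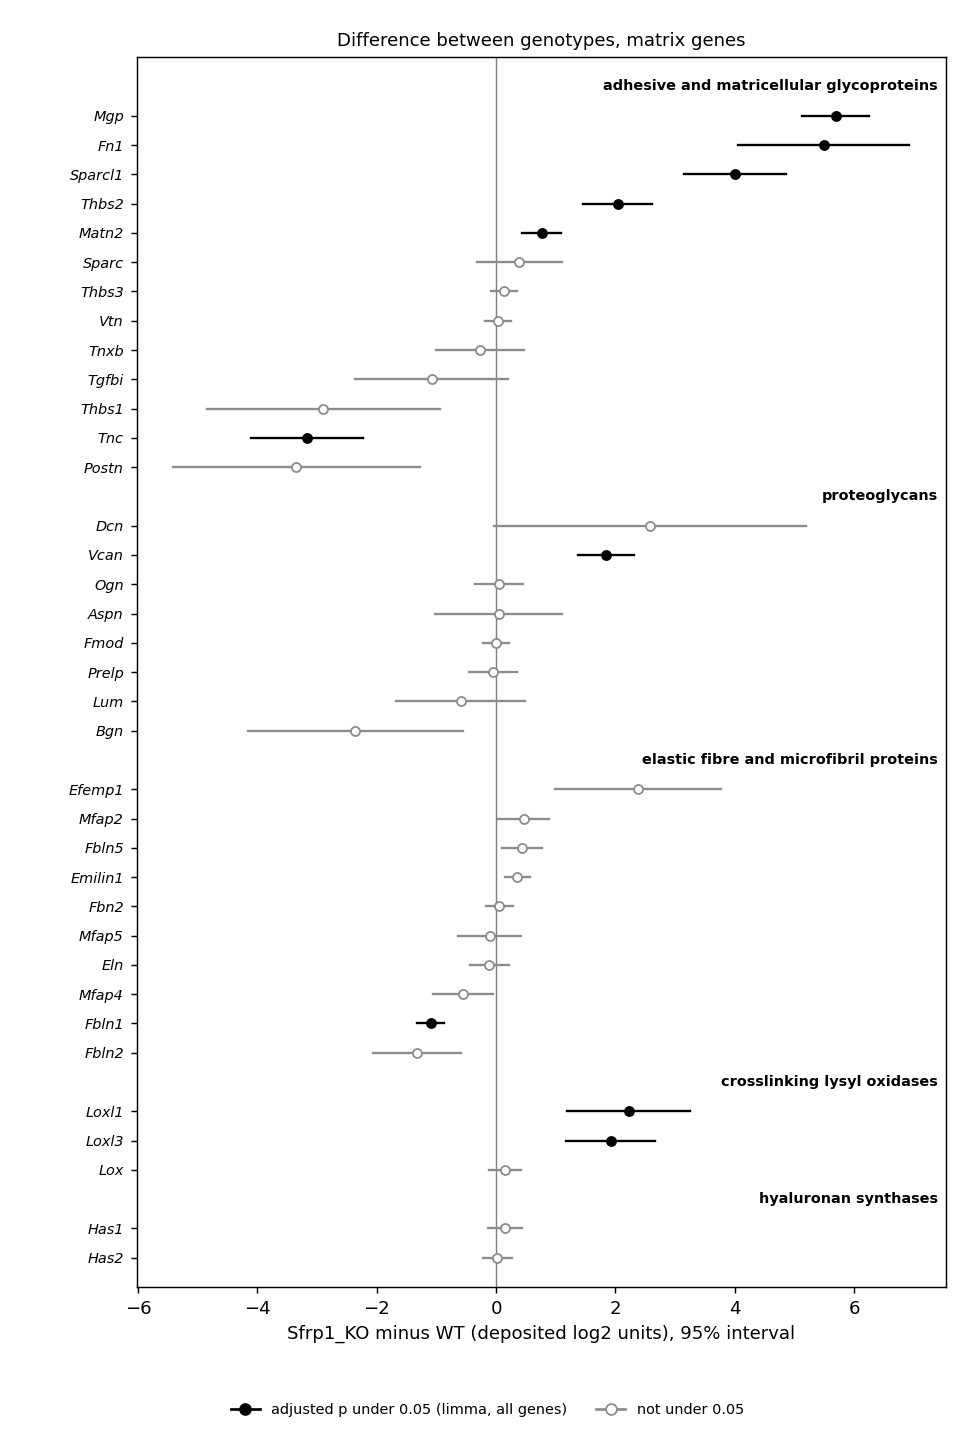
Difference of Sfrp1_KO minus WT in deposited log2 units (x axis) for the 36 measured matrix genes, with the 95% interval from limma; filled black points have adjusted p under 0.05 over all genes and open grey points do not. The 8 genes that rose and the 2 that fell stand clear of 0. Wide grey intervals mark Postn, Thbs1, Bgn, Dcn and Efemp1, and of these only that of Dcn reaches 0. The intervals, unlike the p-values, are not adjusted for the number of genes. Where one genotype was under background, as for Tnc and Fbln1 in Sfrp1_KO, the plotted value is the unbounded difference.

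Matrix genes varied between arrays of a genotype. Over the 36 matrix genes the median SD within a genotype was 0.19 in Sfrp1_KO and 0.31 in WT, and over all genes it was 0.12 in Sfrp1_KO and 0.14 in WT. Sfrp1_KO replicate 3 was at least 1 unit below both other Sfrp1_KO arrays for Fn1, Thbs1 and Loxl1 (8.33% of the 36, against 0.926% of all genes). On that array the mean of the 10 leukocyte and macrophage markers was 4.69 and that of the fibroblast markers 5.66, with 5.30 and 5.90 on Sfrp1_KO replicate 1 and 5.10 and 6.21 on replicate 2; on WT arrays the leukocyte mean was 4.43 to 4.53. Whether these cells contribute to the matrix genes was not tested. Mgp, Fn1, Sparcl1, Thbs2, Vcan and Fbln1 kept adjusted p under 0.05 with any 1 array left out (highest 0.00486, 0.0472, 0.0260, 0.0467, 0.0329 and 0.0260).

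**Figure D4:**
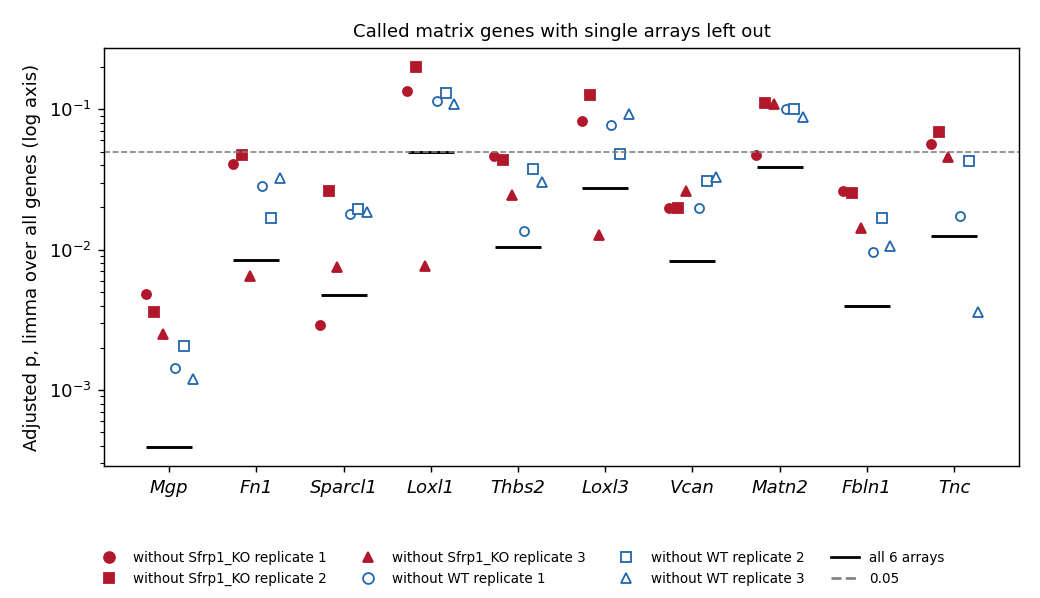
Adjusted p by limma over all genes (log axis) of the 10 called matrix genes when 1 array is left out, with filled red symbols for Sfrp1_KO arrays left out, open blue symbols for WT arrays left out, a black bar for all 6 arrays and a dashed line at 0.05. Mgp, Fn1, Sparcl1, Thbs2, Vcan and Fbln1 stay under the line, while Loxl1 (up to 0.201), Loxl3, Matn2 and Tnc cross it.

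The promoters of 2 genes that rose and of the 2 that fell are shown so that their sequences can be set side by side, since RefSeq promoter windows of build GRCm38.p6 were at hand for 4 of the 10 called genes (and for 21 of the 36). Each window covers 250 bases before to 50 after a transcript start and is printed 5′ to 3′ on the strand given, with motif matches in capitals. The motifs searched on both strands were the TATA box TATAAA, the AP-1 site TGANTCA, the GC box GGGCGG, the CCAAT box CCAAT and the E2 box CAGGTG, which 13.6%, 7.81%, 35.7%, 37.4% and 20.2% of 32851 promoter windows of the same length hold. No matches of different motifs overlapped in these 4 windows. Where a gene has more than 1 window in the table, the one listed first is shown.
Thbs2, higher in Sfrp1_KO, chr17:14694213-14694512, minus strand: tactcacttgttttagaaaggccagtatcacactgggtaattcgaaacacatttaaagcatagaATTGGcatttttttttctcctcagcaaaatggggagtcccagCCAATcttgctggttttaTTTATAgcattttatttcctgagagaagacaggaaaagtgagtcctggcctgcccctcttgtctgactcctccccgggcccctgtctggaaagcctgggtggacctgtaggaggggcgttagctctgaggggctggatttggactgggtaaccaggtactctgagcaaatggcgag
Vcan, higher in Sfrp1_KO, chr13:89742463-89742762, minus strand: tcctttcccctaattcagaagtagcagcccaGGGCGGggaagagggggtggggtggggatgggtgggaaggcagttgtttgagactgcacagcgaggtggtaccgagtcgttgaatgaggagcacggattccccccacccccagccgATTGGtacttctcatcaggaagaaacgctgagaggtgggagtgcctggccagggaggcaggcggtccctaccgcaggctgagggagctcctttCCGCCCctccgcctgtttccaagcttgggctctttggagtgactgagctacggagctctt
Tnc, lower in Sfrp1_KO, chr4:64046966-64047265, minus strand: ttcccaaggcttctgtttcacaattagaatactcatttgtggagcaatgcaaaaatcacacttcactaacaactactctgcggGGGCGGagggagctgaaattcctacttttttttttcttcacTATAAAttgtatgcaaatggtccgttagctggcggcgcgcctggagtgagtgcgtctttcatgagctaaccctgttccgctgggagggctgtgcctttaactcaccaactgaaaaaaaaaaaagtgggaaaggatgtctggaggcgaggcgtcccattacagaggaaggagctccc
Fbln1, lower in Sfrp1_KO, chr15:85205699-85205998, plus strand: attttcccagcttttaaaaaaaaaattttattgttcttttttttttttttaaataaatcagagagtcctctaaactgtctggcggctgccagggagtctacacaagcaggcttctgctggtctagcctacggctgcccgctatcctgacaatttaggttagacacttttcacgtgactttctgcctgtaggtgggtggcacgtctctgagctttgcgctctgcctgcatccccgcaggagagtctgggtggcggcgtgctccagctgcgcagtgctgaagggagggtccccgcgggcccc

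The Thbs2 window held 1 TATA box match and 2 CCAAT box matches, and the Vcan window 2 GC box matches and 1 CCAAT box match. In the Tnc window lay 1 TATA box match and 1 GC box match. Both TATA box matches began at position -126 from the transcript start, the Thbs2 one in reverse orientation (TTTATA). No match to these 5 motifs lay in the Fbln1 window, and no AP-1 or E2 box match lay in any of the 4. The share of G and C was 48.3% for Thbs2, 61.0% for Vcan, 47.3% for Tnc and 51.7% for Fbln1, around the median of 52.7% over all windows. The 4 windows held 4, 12, 10 and 12 CpG dinucleotides in the same order, with a median of 7 over all.

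Other genes of matrix assembly, turnover and adhesion were counted in 7 lists. Together 22 of 196 measured were higher and 7 lower (14.8% called, where 3.28% of all genes were), with a median difference of 0.01, beside -0.01 over all genes. With dim genes left out 25 were higher and 6 lower, beside 610 and 479 of all 11010 genes kept. How many of the 196 passed that filter is not given here, so these counts cannot be compared as shares. Of 45 further matricellular and adhesive glycoproteins 5 rose and none fell (11.1%). Nid1, which encodes the basement membrane linker nidogen 1, rose by 4.11 (SE 0.44), Dmp1, known from bone and dentin matrix, by 4.08 (SE 0.32), Thbs4, another thrombospondin, by 2.27 (SE 0.19), and the guidance ligand gene Slit3 by 2.07 (SE 0.30). Dmp1 stood at 10.50, 9.94 and 9.19 in Sfrp1_KO, against 5.59, 5.90 and 5.91 in WT. By limma the smallest adjusted p among them was 0.00339 for Dmp1 and the largest 0.0201 for Slit3, and Slit3 was not called without Sfrp1_KO replicates 2 (0.0848) or 3 (0.0691) or WT replicates 1 (0.0524) or 2 (0.0623).

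Of 34 further proteoglycans, secreted and membrane-bound, 3 rose and 1 fell (11.8% called). Syndecan 2 (Sdc2), a heparan sulfate proteoglycan of mesenchymal cells, stood at 8.60, 8.92 and 8.79 in Sfrp1_KO and at 6.20, 6.45 and 6.56 in WT, and rose by 2.36 (SE 0.13). Syndecan 1 (Sdc1), its epithelial relative, stood at 6.78, 7.0 and 6.81 in Sfrp1_KO and at 8.98, 9.48 and 9.08 in WT, and fell by 2.31 on the log2 scale (SE 0.15). The groups were tight and apart for both, with limma adjusted p of 0.00125 and 0.00183. Esm1, which encodes endocan, a dermatan sulfate proteoglycan of endothelial cells, rose by 2.80 (SE 0.07), and the TGF-β co-receptor gene Tgfbr3 by 2.65 (SE 0.20). Of 7 endothelial markers measured none was called and none was above background on every array of either genotype. Cdh5, the gene of VE-cadherin, was at 7.15, 6.70 and 4.88 in Sfrp1_KO and at 4.22, 4.36 and 5.16 in WT (difference 1.66, limma adjusted p = 0.264). Pecam1 and Kdr exceeded background only on WT replicate 3, and Tek, Vwf, Emcn and Tie1 on no array. The part of endothelial cells in the Esm1 values was not tested.

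Of 37 genes that build or modify glycosaminoglycan chains, the chondroitin sulfotransferase genes Chst15 (2.43, SE 0.25) and Chst11 (1.10, SE 0.19) rose and none fell. The share called, 5.41%, was near the 3.28% of all genes. Hyaluronan binding and turnover gave 3 lower and none higher of 17 (17.6% called). The hyaluronan receptor gene Cd44 fell to 7.62, 7.69 and 6.63 in Sfrp1_KO, against 11.75, 10.39 and 10.12 in WT (-3.44, SE 0.49, limma adjusted p = 0.0188). The scavenger receptor gene Stab1 fell by 0.81 (SE 0.15), and Has3, the third hyaluronan synthase gene, was under background in Sfrp1_KO and at 5.25, 4.95 and 5.17 in WT. Has3 fell by at least 0.05, a narrow bound. It exceeded background on 2 WT arrays only and was not tested when dim genes were left out. Layn, the gene of the hyaluronan receptor layilin, lay the other way without passing, at 8.70, 9.12 and 8.27 in Sfrp1_KO and 7.26, 6.01 and 5.35 in WT (2.49, SE 0.49, limma adjusted p = 0.0526), and was named after its values were seen. Calls were lost for Chst11 without any 1 array but WT replicate 1 (adjusted p up to 0.134), for Cd44 without any 1 Sfrp1_KO array (up to 0.0749), for Stab1 without any 1 array but WT replicate 3 (up to 0.190) and for Has3 without any 1 array but WT replicate 2 (up to 0.162).

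Among 24 further genes of collagen and elastin maturation, counted together with transglutaminases, 4 rose and 1 fell (20.8%). Pcolce, an enhancer of procollagen processing, rose by 1.52 (SE 0.25), the transglutaminase gene Tgm2 by 1.09 (SE 0.15) and the lysyl hydroxylase gene Plod1 by 0.97 (SE 0.10), while the prolyl 3-hydroxylase gene P3h2 fell by 1.20 on the log2 scale (SE 0.14). Of 18 further elastic fibre genes the latent TGF-β binding protein gene Ltbp1 (0.91, SE 0.13) and Emilin2 (0.82, SE 0.10) rose and none fell (11.1%). Pcolce was not called without any 1 array but Sfrp1_KO replicate 3 (adjusted p up to 0.118), Tgm2 without Sfrp1_KO replicates 1 or 2 or WT replicates 1 or 3 (up to 0.0927), Ltbp1 without Sfrp1_KO replicates 1 or 2 or WT replicates 2 or 3 (up to 0.0894), and P3h2 (0.0524) and Emilin2 (0.0727) without Sfrp1_KO replicate 2.

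Receptors for matrix proteins, some of them collagen receptors, had the largest share of calls among the 7 lists. There 6 of 21 were higher and 2 lower (38.1% called). Ddr2, a collagen receptor kinase gene of mesenchymal cells, stood at 8.82, 9.35 and 8.01 in Sfrp1_KO, against 5.24, 5.37 and 5.22 in WT, and rose by 3.45 (SE 0.32, limma adjusted p = 0.00537). Its epithelial relative Ddr1 fell by 0.44 on the log2 scale (SE 0.08). The endocytic receptor gene Lrp1 rose by 1.86 (SE 0.30), Cd47, which encodes a thrombospondin receptor, by 1.64 (SE 0.25) and Mrc2, a collagen uptake receptor gene, by 1.64 (SE 0.18). The other gene that fell, Itgb6, of the epithelial αvβ6 integrin, was under background in Sfrp1_KO and at 5.48, 4.98 and 4.96 in WT. Itgb6 fell by at least 0.07, exceeded background on 2 WT arrays only and was not tested when dim genes were left out. Ddr1 and Itgb6 were named after their values were seen. Lrp1 was not called without any 1 array but Sfrp1_KO replicate 3 (adjusted p up to 0.106), Cd47 without Sfrp1_KO replicates 1 or 3 or WT replicates 2 or 3 (up to 0.0774), Ddr1 without any 1 array (up to 0.191) and Itgb6 without any 1 array but WT replicate 1 (up to 0.188).

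**Figure D5:**
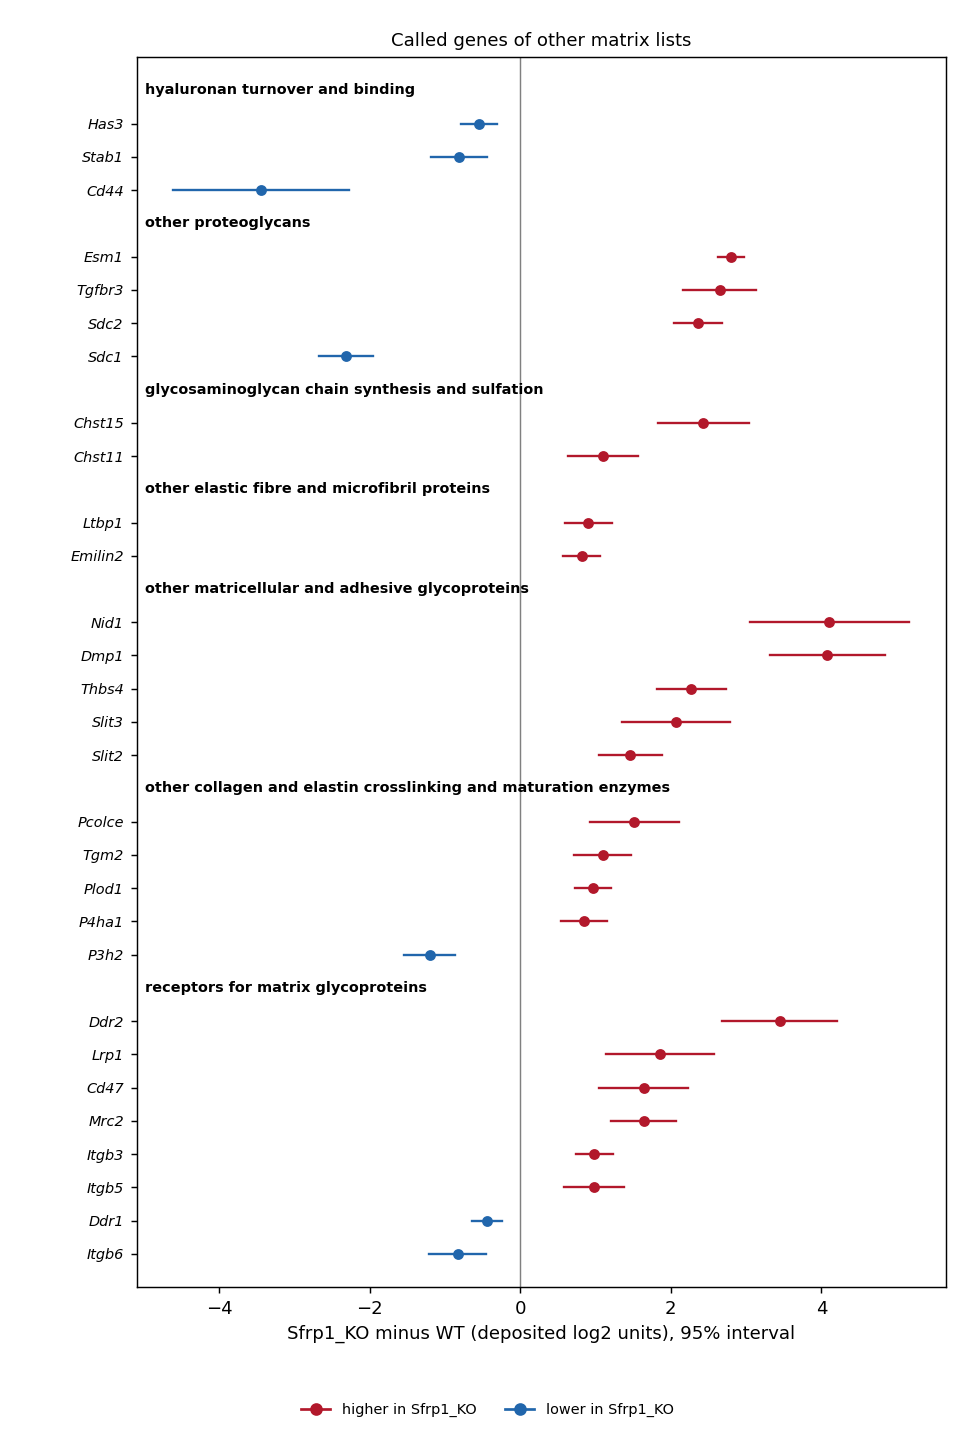
Difference of Sfrp1_KO minus WT in deposited log2 units (x axis) with 95% intervals for the called genes of the 7 other matrix lists, red where higher and blue where lower in Sfrp1_KO. Nid1, Dmp1 and Ddr2 lie farthest to the right and Cd44 farthest to the left; values of genes under background in one genotype are unbounded differences.

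Among the marker lists of cell types, only those of keratinocytes and fibroblasts held called genes. Of 10 keratinocyte markers 7 fell and none rose in Sfrp1_KO, and their mean was 5.58 to 5.68 on Sfrp1_KO arrays and 9.23 to 9.93 on WT arrays. Of 10 fibroblast markers 2 rose, Pdgfrb (8.91, 9.47 and 7.93 in Sfrp1_KO, against 5.11, 4.80 and 5.25 in WT) and Thy1 (6.48, 6.68 and 6.18 in Sfrp1_KO, against 5.51, 5.53 and 5.62 in WT). The fibroblast markers Fap and Pi16 were under background on all 6 arrays. Of 7 pericyte and smooth muscle markers none was called. Their means were 4.66 to 4.81 on Sfrp1_KO arrays and 4.78 to 5.14 on WT arrays, and Rgs5, Myh11 and Des were under background on all 6. Of 10 leukocyte and macrophage markers none was called, with means of 4.69 to 5.30 on Sfrp1_KO arrays and 4.43 to 4.53 on WT arrays, and Ptprc, Adgre1, Csf1r, Cd3e and Itgam were under background on all 6. Lyz2, the lysozyme gene of myeloid cells, was at 7.94, 6.84 and 5.96 in Sfrp1_KO and at 5.11, 4.69 and 5.02 in WT (difference 1.98, limma adjusted p = 0.0941). C1qb (difference 1.3), C1qa (0.85) and Laptm5 (0.75) had no overlap between genotypes either, with limma adjusted p of 0.125, 0.129 and 0.10, and Cd68 overlapped (-0.26). The part that these cell types have in the matrix genes was not tested.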

How the data were processed

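Per the submitters' processing notes, the authors made the deposited log2 signals with RMA in Affymetrix Expression Console; the sources used here name no version, level of summary or build. Of 65956 transcript clusters 30604 carried 1 gene symbol. Features with several symbols were not named. Symbols were updated through RefSeq gene identifiers, and each gene was represented by its brightest feature; all 30142 genes, dim ones included, were tested.

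The comparison of Sfrp1_KO with WT used two-sided limma (version 3.58.1, R 4.3.3; lmFit, then eBayes). P-values were Benjamini-Hochberg adjusted over the whole table, and under 0.05 counted as a call. Single values had exact permutation tests in scipy 1.17.1. If no array of a genotype exceeded background, the difference is "at least" the other genotype's mean minus the background level. Named were all called genes of the list, those whose arrays do not overlap above background, and up to 4 called genes per other list; Tgfbi, Sparc, Dcn, Lum, Aspn, Tnxb, Eln, Has1 and Has2 were added after their values were seen. Members and lists were chosen with earlier results of these data known. Alternative settings, among them other normalizations, filters and single arrays left out, are described at the end.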

Additional observations from a re-analysis of the deposited data

How the results depend on the processing

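The 8 higher and 2 lower calls among the matrix genes remained, as the same genes, when dim genes were left out (25 of the 36 tested), with features averaged per gene, with quantile normalization once more and with eBayes trend and robust options; quantile normalization added 3 calls, array weights kept 9 of the 10 and added 1, and 8 of the 10 remained with arrays centred on their medians and when all features were tested. A threshold of 1 log2 unit left 3 higher and 0 lower (Mgp, Fn1 and Sparcl1), by limma's treat; 19 of the 36 had an unadjusted p under 0.05 in the ordinary test. With the replicate number as a block 5 were higher and 3 lower: Loxl1, Loxl3 and Matn2 lost their calls (adjusted p 0.110, 0.0568 and 0.0631) and Thbs1 gained one (0.0335). Same-numbered arrays had deviations correlated at 0.18, -0.12 and 0.17, so the numbers were not taken as pairs. With 1 array left out the calls ranged from 5 to 7 higher and from 1 to 3 lower. Over all genes the calls were 297 higher and 238 lower with the block, 892 higher with quantile normalization, 47 and 37 with the threshold, and 191 to 487 higher and 100 to 407 lower with 1 array left out. In the 7 other matrix lists they were 5 and 1 with the threshold, 3 lower with centred arrays, 3 lower with all features, and 13 to 23 higher and 1 to 7 lower with 1 array left out. The median difference of the matrix genes was 0.36 with dim genes left out, which tests fewer of them, and 0.02 to 0.17 with 1 array left out. The filter for dim genes could be passed on the arrays of a single genotype, as by Tnc and Fbln1 in WT. The calls kept under it and the median of 0.36 are therefore not a separate test of the differences. Aspn turned to -0.16 with array weights and ranged from -0.24 to 0.59 with 1 array left out, and Tnxb from -0.46 to 0.11. Among other uncalled genes, Lum was at -0.04 and Mfap4 at -0.32 without WT replicate 3, Mfap2 at 0.30 without WT replicate 1, and Sparc ranged from 0.18 to 0.69 with 1 array left out. The cause of these changes was not tested. Signals near background and 3 arrays per genotype limit the precision of the dim genes.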
